A study of Mus musculus with 4 samples.

Results

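Vascular smooth muscle nuclei come from the contractile cells in the walls of arteries and veins. They were picked here from droplets of whole mouse hearts by their UMIs, the unique molecular identifiers that each count 1 captured transcript. A member had 2 or more UMIs of Myh11, the smooth muscle myosin heavy chain, and 4 or more summed over Myh11, Acta2, Lmod1, Tagln and Cdh6. It had 1 or fewer UMIs summed over Pdgfra and Abca8a (fibroblasts), Cdh5 (endothelium) and Mrc1 (macrophages). Members also needed 500 or more UMIs, 300 or more genes, less than 5% mitochondrial UMIs, and less than 3% of UMIs from the cardiomyocyte genes Ttn, Ryr2 and Myh6. The rule found 346 members among the 38134 nuclei that passed the filters on UMIs, genes and mitochondrial share. They numbered 80 and 58 in the libraries with injured fathers (1 and 2), against 119 and 89 in those with uninjured fathers (1 and 2).

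Each library held the nuclei of 1 whole heart of a male WT C57BL/6J mouse. All 4 hearts, those of the control group included, had been injured at day 1 post partum and were taken 21 days after the injury. The groups differed in the father: offspring of injured fathers (2 libraries) were set against offspring of uninjured fathers (2 libraries). Which hearts shared a father or litter is not stated in the labels, so the p-values measure only the spread between these hearts. Nuclei were sorted against Ter119, a surface marker of red blood cells. Pairs of libraries shared 23 to 33 barcodes.

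Smooth muscle cells contract when calcium enters the cytoplasm, activates myosin light chain kinase and lets myosin pull on actin filaments anchored in the cell. Their contractile genes are switched on by serum response factor with its partner myocardin at a short motif named the CArG box. In the heart these cells surround the coronary arteries and the roots of the great vessels, where they also lay down elastic fibres, while pericytes wrap the capillaries.

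The members carried the smooth muscle programme beyond the genes that chose them. Levels here and below are CPM, UMIs of a gene per 1000000 UMIs summed over the nuclei of a type in a library, and levels of different genes were not compared because UMIs were not scaled to gene length. Of 14 smooth muscle markers outside the rule, 13 lay above pericyte nuclei in all 4 libraries, and Notch3, which pericytes share, lay below. Those markers summed to 11259 and 7648 CPM in injured-father members against 12094 and 11641 CPM in uninjured-father members, beside 2846 to 3236 CPM in pericyte nuclei. Injured-father library 2 was the lowest of the 4. The 12 pericyte markers summed to 1696 and 2796 CPM (injured fathers) against 1594 and 1999 CPM (uninjured fathers) in the members, and to 11038 to 12057 CPM in pericyte nuclei. The 12 cardiomyocyte markers summed to 8836 and 9862 CPM (injured fathers) against 8832 and 10338 CPM (uninjured fathers), beside 6998 to 9709 CPM in pericyte nuclei and 86438 CPM in cardiomyocyte nuclei. Fibroblast, vascular endothelial and macrophage markers summed to between 574 and 1434 CPM in every library of members, against 9023, 10677 and 17180 CPM in their own nuclei. Of 7 mesothelial markers 6 had no UMI in any member, and neither had Adipoq and Plin1 of fat cells or Sox10 of Schwann cells. Lymphocyte markers summed to 351 and 20.8 CPM (injured fathers) against 44.7 and 178 CPM (uninjured fathers).

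At the edge of the rule, 38 members had exactly 2 Myh11 UMIs, 13 had a sum of exactly 4 over the 5 genes, and 86 had 1 UMI of an excluded gene. Just outside, 23 nuclei had 1 Myh11 UMI with a sum of 4 or more, 56 had enough Myh11 but a sum under 4, 23 had 2 UMIs of excluded genes, 51 had more of these, and 21 were over the limit for cardiomyocyte genes. Median UMIs per member were 1998 and 2208 with injured fathers against 2289 and 1710 with uninjured fathers. The members summed to 193980 and 144490 UMIs (injured fathers) against 313055 and 168117 UMIs (uninjured fathers). Scrublet, a doublet caller, marked 2 and 0 members in the injured-father libraries and 4 and 11 in the uninjured-father libraries. These were kept, and values without them are given where they change a result.

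Smooth muscle nuclei made up a smaller share of each injured-father library than of either uninjured-father library, a difference that 2 libraries per group cannot carry past the threshold. The share was 0.874% and 0.548% with injured fathers, against 1.14% and 1.12% with uninjured fathers. The groups did not overlap, and injured-father library 2 was the lowest. Wilson 95% intervals, which cover counting error only, were 0.703% to 1.09% and 0.424% to 0.707% for injured-father libraries 1 and 2, and 0.955% to 1.37% and 0.908% to 1.37% for uninjured-father libraries 1 and 2. The means were 0.711% ± 0.231 with injured and 1.13% ± 0.0187 with uninjured fathers (SD, n = 2 each), and the two-sided exact permutation test gave p = 0.33, the smallest that 2 against 2 allows. Per pericyte nucleus there were 0.140 and 0.119 smooth muscle nuclei with injured fathers, against 0.190 and 0.164 with uninjured fathers (exact permutation p = 0.33). With every nucleus thinned to 1000 UMIs the share was 0.711% and 0.451% (injured fathers) against 0.883% and 0.838% (uninjured fathers). The log2 ratio of the shares was -0.67, and -0.37 without injured-father library 2.

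**Figure D1:**
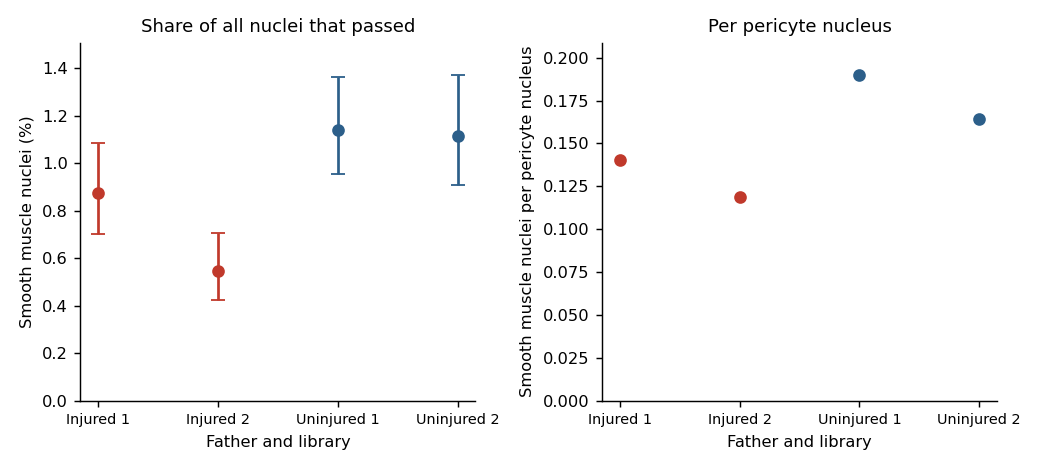
Smooth muscle nuclei as a percentage of all nuclei that passed (left, with Wilson 95% intervals) and per pericyte nucleus (right), 1 point per library. Both injured-father libraries, at 0.874% and 0.548%, lie below the uninjured-father libraries, at 1.14% and 1.12%.

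The contractile list held 22 genes, and all 22 were above pericyte nuclei in each of the 4 libraries. This is a description, because Myh11, Acta2, Lmod1 and Tagln of the list chose the members. The list summed to 18997 and 17351 CPM in injured-father members against 19843 and 18648 CPM in uninjured-father members, beside 4352 to 4967 CPM in pericyte nuclei. Myh11 was at 3459 and 2782 CPM with injured fathers, against 3632 and 3390.5 CPM with uninjured fathers. Injured-father library 2 was the lowest, the groups overlapped, and pericyte nuclei averaged 27.1 CPM. At 1000 UMIs per nucleus, 90.7% of members had a Myh11 UMI, against 1.16% of endothelial nuclei, which should lack it and which, like pericyte nuclei, were held to 1 or fewer Myh11 UMIs by their own rule. Acta2, the smooth muscle actin, was at 1139 and 1225 CPM (injured fathers) against 1575 and 1808 CPM (uninjured fathers), with both injured-father libraries below both others. Lmod1, which nucleates actin filaments, was at 907 and 588 CPM (injured fathers) against 952 and 815 CPM (uninjured fathers), and Tagln, an actin-binding protein, at 289 and 298 CPM (injured fathers) against 294 and 541 CPM (uninjured fathers). Cdh6, an adhesion molecule, was at 469 and 381 CPM (injured fathers) against 284 and 416 CPM (uninjured fathers). The groups overlapped in these last 3 genes.

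Contractile genes that the rule did not use were also concentrated in the members. Cnn1, calponin, averaged 75.4 CPM in members and 0.446 CPM in pericyte nuclei. Actg2, an actin better known from the gut wall, averaged 117 CPM in members and 0.548 CPM in pericyte nuclei, and no endothelial nucleus had an Actg2 or Cnn1 UMI at 1000 UMIs. Mylk, the myosin light chain kinase that starts contraction, averaged 1051 CPM in members and 365 CPM in pericyte nuclei, with 62.1 CPM in endothelial nuclei. Synpo2, an actin-bundling protein, averaged 2020.0 CPM in members and 366 CPM in pericyte nuclei, and 1211 CPM in cardiomyocyte nuclei. Members were below cardiomyocyte nuclei for Tpm1, a tropomyosin, with 1719 CPM in members and 2396 CPM in cardiomyocyte nuclei.

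Promoters of 3 contractile genes are shown because they hold the CArG box in the window searched, which most contractile promoters did not. The window searched ran from 250 bases before the gene's start to 50 after it in the RefSeq table (GRCm38.p6), and the motif reads the same on both strands. Counted by gene, with a match in any of its promoters, it was found in 3 of the 18 contractile genes that matched the table (16.7%). The same count gave 296 of 16770 measured genes (1.77%). Counted by promoter, it was found in 535 of all 32851 (1.63%). Of the other lists searched, it was found in 1 of 19 calcium and contraction genes and 0 of 10 elastic fibre genes. Only exact matches in this window were counted. A match is a description and no evidence of binding. The 250 bases before the start are printed 5′ to 3′ on the gene's strand, with the motif in capitals. Myl9 (regulatory light chain of smooth muscle myosin) is at chr2:156775214-156775463 on the plus strand, Myl6 (essential light chain) at chr10:128493010-128493259 on the minus strand, and Vcl (vinculin, which anchors actin to the membrane) at chr14:20929148-20929397 on the plus strand. The motif begins 161 bases before the start in Myl9, 50 in Myl6 and 227 in Vcl.
Myl9: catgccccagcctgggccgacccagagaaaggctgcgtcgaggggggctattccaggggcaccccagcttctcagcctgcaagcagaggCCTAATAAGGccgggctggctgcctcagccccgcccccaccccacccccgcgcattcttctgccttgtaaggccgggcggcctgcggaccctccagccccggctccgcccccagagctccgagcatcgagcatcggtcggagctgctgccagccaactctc
Myl6: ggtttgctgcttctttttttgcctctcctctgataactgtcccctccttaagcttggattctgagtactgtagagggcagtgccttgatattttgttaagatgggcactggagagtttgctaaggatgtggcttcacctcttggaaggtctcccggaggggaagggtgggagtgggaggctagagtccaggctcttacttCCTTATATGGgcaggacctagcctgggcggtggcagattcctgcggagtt
Vcl: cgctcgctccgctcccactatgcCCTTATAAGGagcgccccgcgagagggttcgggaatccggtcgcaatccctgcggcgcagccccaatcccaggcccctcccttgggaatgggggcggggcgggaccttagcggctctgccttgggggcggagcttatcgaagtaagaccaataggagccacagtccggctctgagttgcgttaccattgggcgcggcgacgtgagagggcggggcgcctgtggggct
Myl9 stood at 165 and 159 CPM (injured fathers) against 163 and 297 CPM (uninjured fathers), and averaged 42.6 CPM in pericyte nuclei. Uninjured-father library 2 was above the other 3, and the groups overlapped. Myl6 averaged 353 CPM in members and 109.7 CPM in pericyte nuclei, and Vcl 676 CPM in members and 396 CPM in pericyte nuclei. All 3 were above pericyte nuclei in every library.

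**Figure D2:**
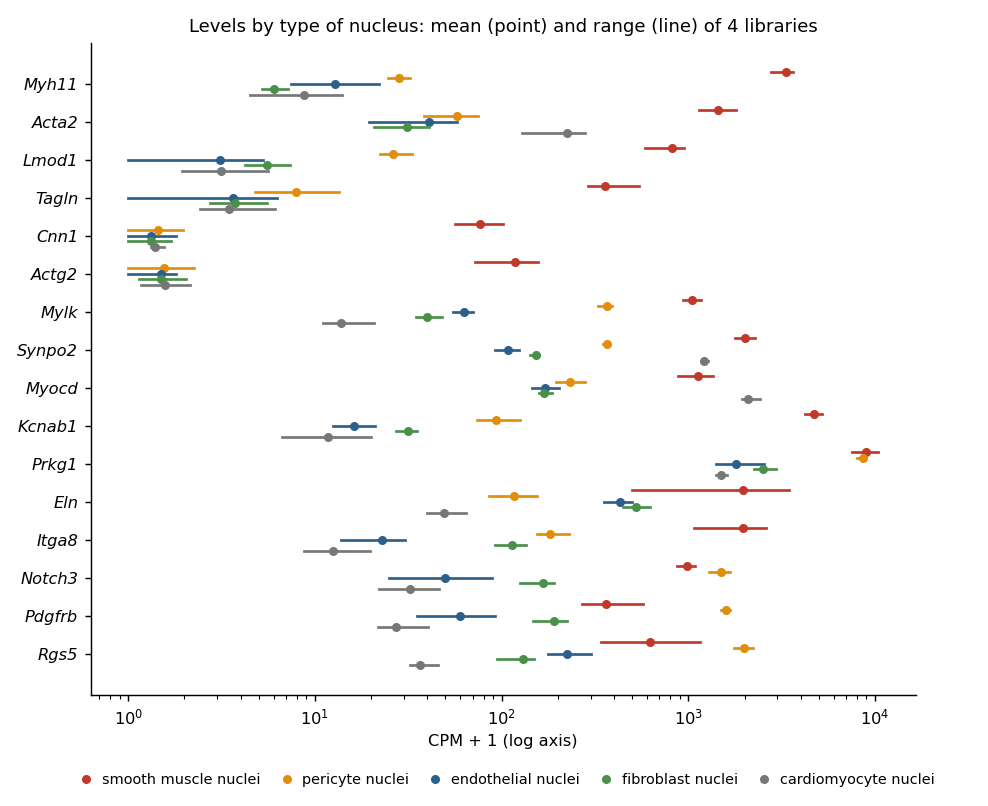
Levels of 16 genes in smooth muscle, pericyte, endothelial, fibroblast and cardiomyocyte nuclei, as CPM + 1 on a log axis, with the mean of 4 libraries as a point and their range as a line. Myh11 averages 3316 CPM in smooth muscle and 27.1 CPM in pericyte nuclei, while Notch3 averages 988 and 1503 CPM.

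Some regulators of the programme were above pericyte nuclei. Of 16 regulators measured, 4 were above and 2 below pericyte nuclei in all 4 libraries. Of the 4477 genes with at least 50 CPM in either type, 662 were above and 933 below. Myocd, myocardin itself, was at 1159.9 and 1087 CPM with injured fathers, against 1361 and 874 CPM with uninjured fathers. Its groups overlapped, and it averaged 230.1 CPM in pericyte nuclei and 2076 CPM in cardiomyocyte nuclei. Prdm6, a repressor that acts in smooth muscle, was at 366 and 111 CPM (injured fathers) against 345 and 357 CPM (uninjured fathers), with 5.4 CPM in pericyte nuclei and 20.3 CPM in fibroblast nuclei. Injured-father library 2 stood below the other 3. Mrtfa, which carries actin signals to serum response factor, averaged 260.3 CPM in members and 275 CPM in pericyte nuclei, and its relative Mrtfb 276 CPM in members and 248 CPM in pericyte nuclei. Srf, serum response factor, averaged 10.1 CPM, and Klf5 had no UMI in any member.

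Genes for calcium entry and relaxation were shared with pericytes in part. Of 26 genes on this list, 13 were above and 2 below pericyte nuclei in all 4 libraries, beside 662 above and 933 below of 4477 genes. Kcnab1, a potassium channel subunit, had the largest ratio against pericyte nuclei among genes outside the rules that chose the types, 41.8 with 20 CPM added to both. It was at 4944 and 4381 CPM (injured fathers) against 5194 and 4229 CPM (uninjured fathers), with a pericyte range of 72.9 to 125 CPM. Kcnma1, the large-conductance potassium channel that limits contraction, was at 1031 and 436 CPM (injured fathers) against 1073 and 696 CPM (uninjured fathers), and averaged 8.11 CPM in pericyte nuclei. Prkg1, the kinase that relaxes smooth muscle in response to nitric oxide, averaged 8897 CPM in members and 8609.9 CPM in pericyte nuclei. Cacna1c, the L-type calcium channel, averaged 4641 CPM in members and 4122 CPM in pericyte nuclei, and Slc8a1, the sodium-calcium exchanger, 4799 CPM in members and 2070.0 CPM in pericyte nuclei.

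Across all genes with at least 50 CPM in either type, 662 of 4477 were above and 933 below pericyte nuclei in all 4 libraries. No test was made, because the rules that chose the types fix part of this contrast. After Kcnab1 and Kcnma1, the largest ratios among genes outside the rules belonged to Col4a6 (a basement membrane collagen), Thsd4 (a microfibril protein), Unc5c (a netrin receptor), Bmpr1b (a receptor for bone morphogenetic proteins), Ptprz1 (a receptor phosphatase), Npnt (an integrin ligand), Eln (elastin), Slc38a11, Ntrk3 (a neurotrophin receptor) and Olfr78 (an olfactory receptor). Thsd4 averaged 2969 CPM in members and 103 CPM in pericyte nuclei, and Olfr78 307 CPM in members and 5.32 CPM in pericyte nuclei. Olfr78 was at 273 and 298 CPM (injured fathers) against 316 and 339 CPM (uninjured fathers) and Ptprz1 at 639 and 90.0 CPM (injured fathers) against 422 and 249.8 CPM (uninjured fathers), so that the libraries were close for the first and far apart for the second.

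The lowest ratios to pericyte nuclei included those of Mdga2, an adhesion molecule (24.0 CPM in members and 1283 CPM in pericyte nuclei), Adgrl3, an adhesion G protein-coupled receptor (126 CPM in members and 1293 CPM in pericyte nuclei), and Lrrc4c, a netrin-G ligand (19.5 CPM in members and 281 CPM in pericyte nuclei). The phosphodiesterase Pde8b averaged 55.5 CPM in members and 1274 CPM in pericyte nuclei. Colec11, Zfp804b, Lin7a, Ttyh2, Dennd2a, Cygb and Rerg were also on this list. Against all other nuclei together, the leading genes added Dgkb, a diacylglycerol kinase, with 2619.9 CPM in members and 37.2 CPM in the rest, Itga8, an integrin subunit, with 1954 CPM in members and 50.9 CPM in the rest, Ccdc3, Mylk and Mark1.

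Of 18 vasoactive receptors, 3 had no UMI in any member (Agtr1b, Adra2a and Avpr1a), and 4 were above and 5 below pericyte nuclei in all 4 libraries. The counts of this paragraph stand beside 662 above and 933 below of the 4477 genes with at least 50 CPM in either type. Ednra, the endothelin receptor that drives constriction, was at 227 and 464 CPM (injured fathers) against 284 and 279.6 CPM (uninjured fathers), and averaged 624 CPM in pericyte nuclei. Of 16 Notch genes, 3 were above and 4 below pericyte nuclei. Notch3, the Notch receptor of mural cells, was at 985 and 1079.7 CPM (injured fathers) against 869 and 1017 CPM (uninjured fathers), below the pericyte range of 1296 to 1675 CPM. Hey2, a Notch target, averaged 95.8 CPM in members and 23.0 CPM in pericyte nuclei, while Heyl, another, averaged 65.8 CPM in members and 224 CPM in pericyte nuclei. Of 20 PDGF, TGF-beta and BMP genes, 7 were above and 3 below. Pdgfrb, the receptor that recruits mural cells, averaged 359.7 CPM in members and 1583 CPM in pericyte nuclei, and its ligand gene Pdgfd 1045 CPM in members and 198 CPM in pericyte nuclei.

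Of 16 elastic fibre genes, 9 were above and 2 below pericyte nuclei in all 4 libraries, and of 25 collagens, laminins and integrins 6 were above and 9 below. These counts, and those of modulated smooth muscle below, stand beside 662 above and 933 below of 4477 genes. Ltbp1, which stores latent TGF-beta in the matrix, averaged 1113 CPM in members and 182 CPM in pericyte nuclei. Lama2, a laminin chain, ran the other way, with 824 CPM in members and 2089 CPM in pericyte nuclei. Among 17 markers of modulated smooth muscle, the state in which these cells lose contractile genes, 3 were above and 3 below pericyte nuclei. Spp1 averaged 1.73 CPM, Lgals3 4.95 CPM and Klf4 32.2 CPM, beside 157 CPM of Klf4 in endothelial nuclei. Postn, a matrix protein of remodelling tissue, averaged 250.2 CPM in members and 301 CPM in pericyte nuclei. Of 12 cycling genes, 5 had no UMI in any member, and the 12 summed to 36.1 and 48.4 CPM with injured fathers against 60.7 and 41.6 CPM with uninjured fathers.

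The members were not uniform. To compare nuclei at 1 depth, 324 members with at least 1000 UMIs were thinned to 1000 UMIs each, which left out 4 and 0 shallower members of the injured-father libraries, against 7 and 11 of the uninjured-father libraries. Variance over mean was then taken for the 1050 genes with a mean of at least 0.2 UMIs, and its median was 1.22. Eln, the elastin gene, varied most over all nuclei pooled, with a ratio of 8.76: 175 nuclei had no Eln UMI, 80 had 3 or more, and the highest had 38. Pcdh7, a protocadherin, followed at 6.94, Dmd (dystrophin) at 5.15, Gpc6 (a glypican) at 4.98, Sorbs2 (a filament adaptor) at 4.52, Ctnna3 (an alpha-catenin) at 4.46, Prkg1 at 4.17, Dlc1 (a GTPase-activating protein) at 3.72, Ptprz1 at 3.63 and Bmpr1b at 3.43. Within libraries the order of the first pair differed: Eln had 3.4 and 1.54 with injured fathers against 5.72 and 13.8 with uninjured fathers, and Pcdh7 8.3 and 4.64 with injured fathers against 6.39 and 5.93 with uninjured fathers. Eln was thus above Pcdh7 in uninjured-father library 2 and below it in the other 3.

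Among these 10 genes some pairs went together across nuclei and others apart. Over the 324 nuclei, Pcdh7 went with Dmd (Pearson's r = 0.46, Spearman's rank correlation 0.50) and with Eln (r = 0.32, rank correlation 0.60), and Eln with Bmpr1b (r = 0.26, rank correlation 0.58). Ctnna3 went with Prkg1 (r = 0.46, rank correlation 0.47) and Sorbs2 with Prkg1 (r = 0.42, rank correlation 0.38). Pcdh7 and Prkg1 went apart, with r = -0.40, rank correlation -0.48, and r lay between -0.45 and -0.31 in the 4 libraries taken singly. Other pairs had r nearer 0: Dmd and Sorbs2 had r = 0.09, rank correlation 0.05, Dmd and Ctnna3 r = -0.06, rank correlation -0.08, and Gpc6 had r between -0.21 and 0.096 with the other genes. These are descriptions: nuclei of a library share its source, and because each nucleus holds 1000 UMIs a high gene leaves fewer UMIs for the others.

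**Figure D3:**
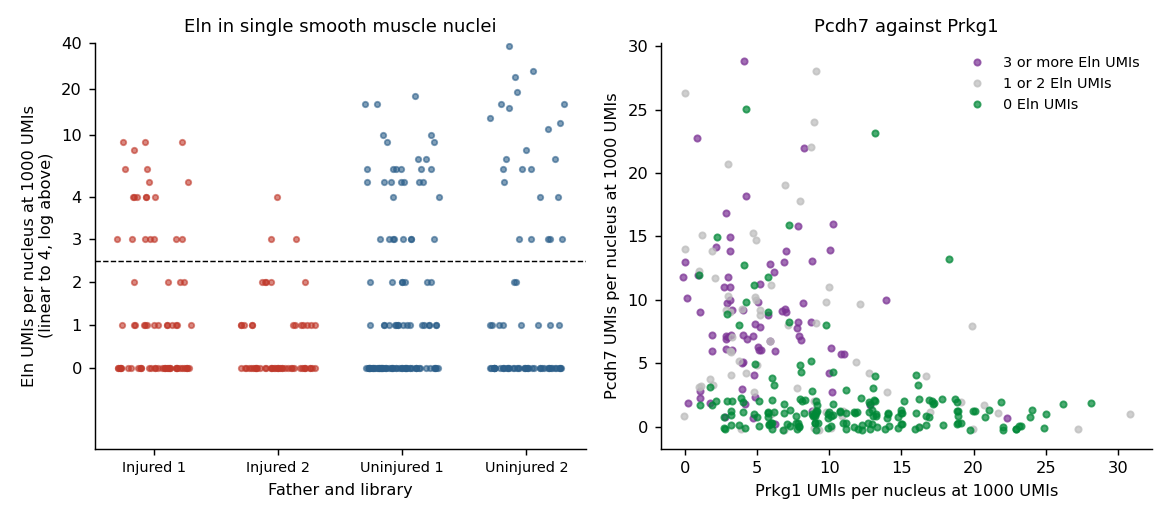
Left, Eln UMIs in each of 324 smooth muscle nuclei thinned to 1000 UMIs, by library, with a dashed line below 3 UMIs. Right, Pcdh7 against Prkg1 UMIs in the same nuclei, coloured by Eln; nuclei with 3 or more Eln UMIs lie toward high Pcdh7 and low Prkg1, nuclei with 0 toward the opposite corner, and injured-father library 2 has 3 nuclei above the line.

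The 80 nuclei with 3 or more Eln UMIs (Eln-rich) and the 175 with none (Eln-free) were then compared gene by gene. Of 1037 genes compared, 160 were higher and 210 lower in Eln-rich nuclei in every one of the 4 libraries. Injured-father library 2 had only 3 Eln-rich nuclei, so a gene at a low level can read 0 there and count as lower. With 4 libraries some genes share a direction without any difference between the nuclei, and their number was not estimated. The split was made after Eln had been seen to vary, so no test was made. Bmpr1b stood at 1.74 and 0.0514 UMIs per 1000 in Eln-rich and Eln-free nuclei. In the same order Sulf1, a sulfatase that edits heparan sulfate, stood at 1.25 and 0.154, Nox4, an NADPH oxidase, at 0.75 and 0.080, Ntrk3 at 1.19 and 0.206, Itga8 at 3.89 and 0.891 and Prdm6 at 0.70 and 0.114. Each was higher in Eln-rich nuclei in all 4 libraries, as were Mylk4, Mtus2, Fhl1, Efna5, Ncam1, Unc5c and Fmo2. Apart from Eln, which made the split, no gene of the elastic fibre list was higher or lower in all 4 libraries. Ltbp1, at 1.41 and 0.726, was higher in 3. So were Mfap5 at 0.25 and 0.0171, Fbln5 at 0.225 and 0.0343, Mfap4 at 0.10 and 0.0229, Lox and Ltbp2. Mfap5, Fbln5, Mfap4 and Ltbp2 had no UMI in the 3 Eln-rich nuclei of injured-father library 2. Fbn2 and Emilin1 were lower in 3 libraries.

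Eln-free nuclei were higher in several genes that pericytes also use and in Chrm3. Rgs5, a brake on G protein signalling known as a pericyte marker, stood at 0.050 and 1.01 UMIs per 1000 in Eln-rich and Eln-free nuclei. Notch3 stood at 0.30 and 1.45, Pdgfrb at 0.175 and 0.526, and Gucy1a1, a subunit of the nitric oxide receptor, at 0.35 and 0.891. Chrm3, the gene of a muscarinic acetylcholine receptor, stood at 0.0625 and 1.13 and Olfr78 at 0.0125 and 0.44. Each of these was lower in Eln-rich nuclei in all 4 libraries, as were Kazn, Egflam, Adap2, Dgkg, Ebf2, Map2, Cyp7b1, Mamdc2, Cacna1c and Trpc6. Vtn, Higd1b and Colec11, further pericyte markers, had no UMI in Eln-rich nuclei and 0.0114, 0.0343 and 0.0286 UMIs per 1000 in Eln-free nuclei. Such levels are so low that a value of 0 in the fewer Eln-rich nuclei says little. Not all pericyte markers were lower in Eln-rich nuclei: Cspg4 was nearly equal, at 0.388 and 0.377. Cspg4, Ndufa4l2 and Steap4 were each higher in Eln-rich nuclei in 1 library.

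Some contractile genes had no common direction over the libraries. Synpo2 stood at 1.85 and 1.82 UMIs per 1000 in Eln-rich and Eln-free nuclei and Mylk at 0.85 and 1.07, each higher in some libraries and lower in others, as was the channel subunit Kcnab1 at 4.7 and 5.15. Myh11 stood at 2.89 and 3.19, but every member needed 2 or more Myh11 UMIs, so the rule fixes part of this. Others were higher in Eln-rich nuclei in all 4 libraries, among them Flna, filamin A, at 1.61 and 1.02, Vcl at 0.838 and 0.486 and the regulator Myocd at 1.46 and 0.794. Acta2, which also entered the rule, was at 1.94 and 1.25 and higher in 3 of 4.

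**Figure D4:**
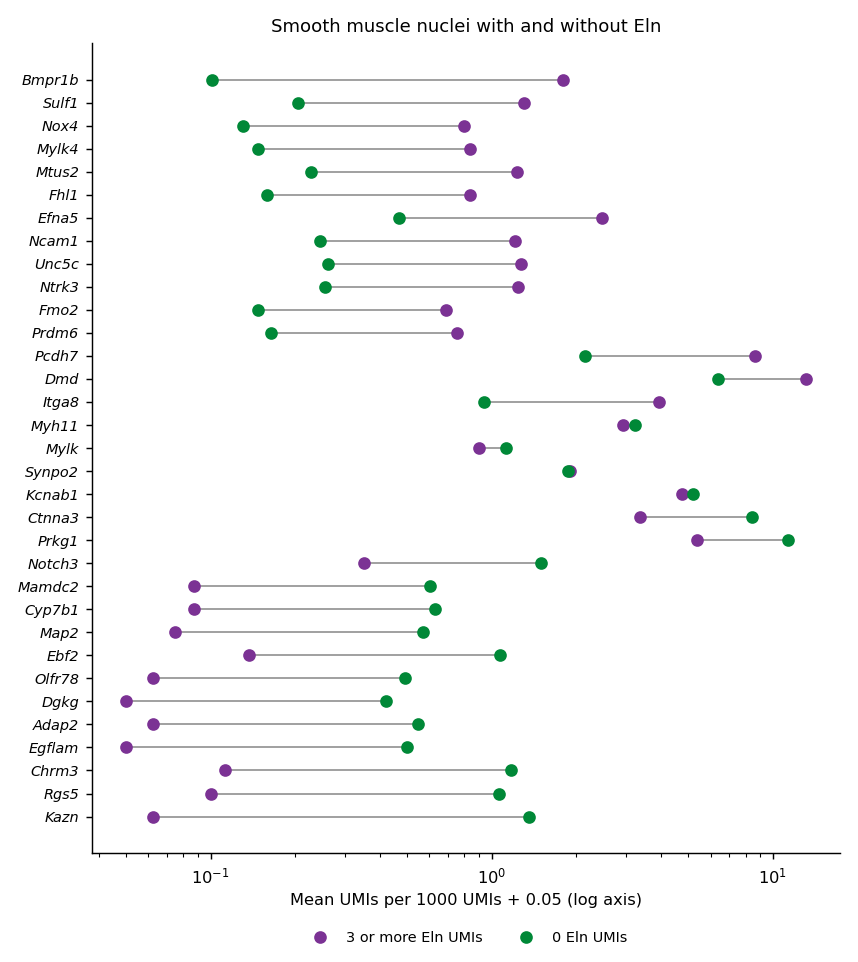
Mean UMIs per 1000 UMIs, with 0.05 added and on a log axis, in 80 smooth muscle nuclei with 3 or more Eln UMIs and 175 with none. Before the addition Bmpr1b is at 1.74 and 0.0514 and Rgs5 at 0.050 and 1.01 in Eln-rich and Eln-free nuclei, while Synpo2 is at 1.85 and 1.82; Myh11 is shown as a gene that chose the members.

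Eln-rich nuclei were scarce in 1 library. They made up 27.6% and 5.17% of the thinned members with injured fathers (21 and 3 nuclei), against 28.6% and 30.8% with uninjured fathers (32 and 24 nuclei). Injured-father library 2 stood far below the other 3. In endothelial nuclei the share with 3 or more Eln UMIs was 2.99%. Between groups the difference was -13.3 percentage points, and -2.04 without injured-father library 2. Over all members of a library, Itga8 was lowest in the same library, at 2366 and 1073 CPM (injured fathers) against 2600.2 and 1779 CPM (uninjured fathers), as was Prdm6. Myocd and Bmpr1b, also higher in Eln-rich nuclei, were lowest in uninjured-father library 2, Bmpr1b at 572 and 533 CPM (injured fathers) against 769.8 and 399 CPM (uninjured fathers). Rgs5 was highest in injured-father library 2, at 361 and 1149 CPM (injured fathers) against 339 and 648 CPM (uninjured fathers).

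Between fathers, no gene passed the threshold in smooth muscle nuclei. Of 3861 genes with enough UMIs, 0 were higher and 0 lower with injured fathers at an adjusted p of 0.05 (edgeR quasi-likelihood test on counts summed per library, 0.0% called), and the lowest adjusted p was 0.258. An unadjusted p under 0.05 was reached by 102 genes (2.64%), 49 positive and 53 negative. DESeq2 called 1 gene, Camk1d, higher (0.0259%), and limma-voom 0. With no filter on low counts edgeR called 2 higher and 2 lower (0.0146% each, 0.0292% in all). The groups did not overlap in 1148 genes (29.7%), 570 higher (14.8%) and 578 lower (15%), and the median log2 fold change of all genes was 0.00.

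Opcml, a cell adhesion molecule, had the smallest p. It was at 232 and 381 CPM with injured fathers, against 86.2 and 83.3 CPM with uninjured fathers. The groups did not overlap, and the log2 fold change was 1.82 (SE 0.34, unadjusted p = 9.3e-05, edgeR). Few nuclei carried it: 8 and 8 nuclei held its 45 and 55 UMIs with injured fathers, the highest with 20 and 13, against 14 and 7 nuclei with 27 and 14 UMIs and at most 4 and 3 per nucleus with uninjured fathers. Camk1d, a calcium-dependent kinase, was at 7671 and 7066 CPM (injured fathers) against 2757 and 3622 CPM (uninjured fathers), with UMIs in 100% of injured-father and in 99.2% and 96.6% of uninjured-father members. Both injured-father libraries lay above both others, and the log2 fold change was 1.22 (SE 0.24, adjusted p = 0.258, edgeR). DESeq2 gave Camk1d an adjusted p of 0.0111, and edgeR gave 0.00325 without uninjured-father library 2, in a range of 0.00325 to 0.9105 over all alternatives.

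Lars2, the mitochondrial leucyl-tRNA synthetase, was at 1500.2 and 1280.4 CPM (injured fathers) against 767 and 732 CPM (uninjured fathers), a log2 fold change of 0.90. Gab1, a docking protein of growth factor receptors, was at 659.9 and 644 CPM (injured fathers) against 412 and 333 CPM (uninjured fathers) (0.80). Il1rapl1, a synaptic receptor, was at 129 and 62.3 CPM (injured fathers) against 25.6 and 23.8 CPM (uninjured fathers) (1.96), and 20 of its 25 UMIs in injured-father library 1 came from 1 nucleus. None of the 3 had overlapping groups, and none passed the adjusted threshold.

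Eln was at 1634 and 498 CPM with injured fathers, against 2242 and 3444 CPM with uninjured fathers. The groups did not overlap, but the 2 libraries of each group lay far apart. Its log2 fold change was -1.39 (SE 0.39, unadjusted p = 0.00323, edgeR), -0.79 without injured-father library 2 and -2.52 without injured-father library 1. It passed the threshold without uninjured-father library 1 (adjusted p = 0.000918, edgeR) and with no filter on low counts (adjusted p = 0.00649, edgeR), in a range of 0.000918 to 1 over all alternatives. Fmo2, a flavin monooxygenase, was at 196 and 145 CPM (injured fathers) against 335 and 369 CPM (uninjured fathers) (-1.02).

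Thsd7a, a membrane protein, was at 56.7 and 69.2 CPM (injured fathers) against 137 and 256 CPM (uninjured fathers) (-1.59). Single nuclei held 17 and 12 of its 43 and 43 UMIs in the uninjured-father libraries, with doublets removed the log2 fold change was -0.73, and without uninjured-father library 1 it passed the threshold (adjusted p = 0.029, edgeR; range over all alternatives 0.029 to 1). Arhgef18, a guanine nucleotide exchange factor, was at 41.2 and 20.8 CPM (injured fathers) against 95.8 and 113 CPM (uninjured fathers) (-1.66), from 8 and 3 UMIs in injured-father against 30 and 19 in uninjured-father libraries. Lrrtm3, a synaptic adhesion protein, was at 108 and 131 CPM (injured fathers) against 211 and 321 CPM (uninjured fathers) (-1.12). In these 3 genes too the groups lay apart.

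**Figure D5:**
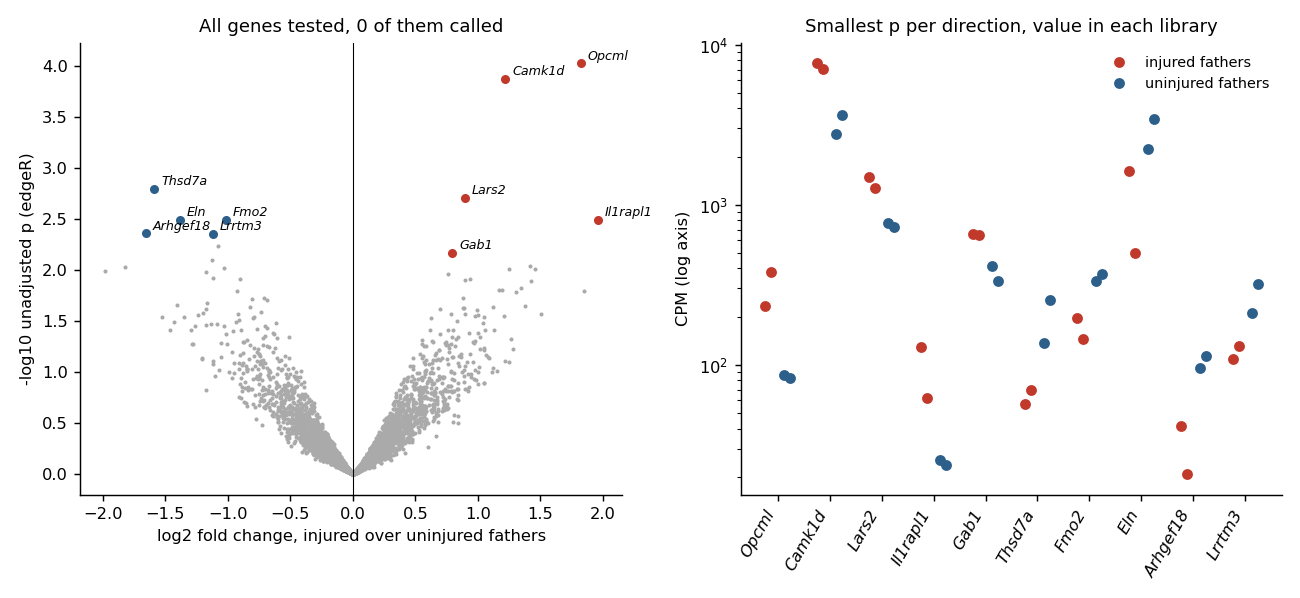
Left, log2 fold change (injured over uninjured fathers) against the unadjusted edgeR p on a -log10 scale for 3861 genes, none of which was called. Right, CPM on a log axis in each library for the 5 genes with the smallest p per direction, injured-father libraries left of uninjured-father libraries; Eln is at 1634 and 498 CPM (injured fathers) against 2242 and 3444 CPM (uninjured fathers).

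Gene groups of the vessel wall gave no call either. Of 22 contractile genes tested, 8 had a positive and 14 a negative log2 fold change, with a median of -0.09 beside 0.00 for all genes. That median was -0.18 without injured-father library 1, -0.0021 without injured-father library 2 and -0.044 without uninjured-father library 1. The groups did not overlap in 6 of the 22, beside 29.7% of all genes. Smtn, smoothelin, at -0.63 (SE 0.28), had the smallest p of the list (0.0421 unadjusted, edgeR). Acta2, at -0.51, and Myh11, at -0.17, are given as a description, because their UMIs chose the members. Regulators gave 3 positive and 8 negative of 11 tested (median -0.12, -0.074 without injured-father library 1 and 0.018 without injured-father library 2). Gata6, a vascular transcription factor, was at 72.2 and 20.8 CPM (injured fathers) against 102 and 119 CPM (uninjured fathers) (-1.14), and Heyl at 36.1 and 48.4 CPM (injured fathers) against 89.4 and 89.2 CPM (uninjured fathers) (-1.09). Calcium and contraction genes gave 13 positive and 10 negative of 23 (median 0.01, from -0.042 without uninjured-father library 2 to 0.068 without uninjured-father library 1). With doublets removed that median was -0.038.

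Matrix groups had more negative than positive values, without a call. Elastic fibre genes gave 2 positive and 7 negative of 9 tested, with a median of -0.34. That median ran from -0.64 without injured-father library 1 to -0.31 without uninjured-father library 2, and was -0.49 without injured-father library 2. Collagens, laminins and integrins gave 4 positive and 17 negative of 21, with a median of -0.18. It ran from -0.35 without injured-father library 1 to -0.15 without injured-father library 2. The groups did not overlap in 4 of the 9 and 8 of the 21, beside 29.7% of all genes. Col18a1, which yields endostatin, was at 206 and 111 CPM (injured fathers) against 236 and 327 CPM (uninjured fathers), and Hspg2, perlecan, at 268 and 131 CPM (injured fathers) against 294 and 393 CPM (uninjured fathers). Injured-father library 2, with 3 Eln-rich nuclei, was the lowest in both genes, and the part of that in these values was not tested. Notch genes gave 4 positive and 4 negative (median -0.03), PDGF, TGF-beta and BMP genes 7 and 10 (-0.02), modulated smooth muscle genes 1 and 5 (-0.47), and immediate early genes 2 and 1 (0.12). These 4 medians also rested on single libraries. The Notch median was -0.21 without injured-father library 1 and 0.13 without injured-father library 2, and the modulated median -0.14 without injured-father library 1 and -0.65 without injured-father library 2. The PDGF, TGF-beta and BMP median ran from -0.16 without injured-father library 2 to 0.13 without uninjured-father library 1, and the immediate early median from -0.23 without injured-father library 2 to 0.43 without injured-father library 1. Dcn, decorin, was the positive one among the modulated genes, at 196 and 249 CPM (injured fathers) against 144 and 107 CPM (uninjured fathers) (0.78). Of the vasoactive receptors only Ednra and Npr3, a natriuretic peptide receptor, had enough UMIs, with 0.27 and -0.48.

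Pericyte nuclei of the same hearts gave the nearest comparison. The difference between the father contrast in smooth muscle nuclei and that in pericyte nuclei was tested for 8409 genes, with each library as a block, and 0 passed (edgeR, 0.0% called), with 311 at an unadjusted p under 0.05 and 0 calls by DESeq2 or limma-voom. The lowest adjusted p, 0.167 (edgeR), belonged to Opcml, whose log2 fold change was 1.82 in smooth muscle and 0.03 in pericyte nuclei. Slit3, a guidance ligand, followed, with -0.07 in smooth muscle and 1.09 in pericyte nuclei. In members it was at 1495 and 1107 CPM (injured fathers) against 1546 and 1184 CPM (uninjured fathers), and the groups overlapped. Both differences passed with the stricter rule of 3 or more Myh11 UMIs and 6 or more in all (adjusted p = 0.000255 and 0.0284, edgeR) and with no filter on low counts, where 1 was higher and 1 lower (0.00624% each, 0.0125% in all). Over all alternatives the adjusted p ran from 1.28e-05 to 1 for Opcml and from 0.00278 to 1 for Slit3. Thsd7a differed by -1.71. In members Gpm6a rested on 1 and 2 UMIs in injured-father against 8 and 5 in uninjured-father libraries, and Pkhd1l1 on 1 and 1 in injured-father against 10 and 11 in uninjured-father libraries.

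Genes known from earlier results on these libraries to differ by father in other nuclei were also read in smooth muscle nuclei. Slc15a2, a peptide transporter, had 9 and 3 UMIs with injured fathers, in 6 and 3 nuclei, against 0 and 0 with uninjured fathers, too few for the test. A count of 0 allows up to 3 UMIs per library. Camk1d had 1.10 in pericyte nuclei, where it passed (adjusted p = 0.000959, edgeR), and the difference between the types was 0.14 (SE 0.21). Cdk8, a kinase of the Mediator complex, had 0.48 in smooth muscle nuclei, Cmss1 0.41 and Gphn, gephyrin, 0.14. The 5 tested genes of this set were all positive, with a median of 0.48, and 0 were called. Without injured-father library 1 the median was 0.27, with Cdk8 at 0.27, Cmss1 at 0.10 and Gphn at -0.0091, and without injured-father library 2 Cmss1 was at 0.64. These nuclei come from the hearts in which the genes were first seen, so the values are no independent support.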

How the data were processed

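Single-nucleus UMI counts of 21884 genes, whole numbers with no normalization, were used as the authors deposited them. Cell Ranger 6.0.1 made them, per the file headers; the submitters' processing notes also name Seurat 4.0, and no source used here gives the build or annotation. The members and gene lists were chosen with earlier results of these data known. Named genes were the 5 smallest p per direction (fewer than 5 were called), up to 6 members of each list by mean CPM and 2 by p, 12 per direction by ratio to pericyte nuclei and 12 to the rest, the 10 most variable, and the 5 smallest p of the difference from pericyte nuclei. Genes of the Eln split, and list members outside that rule, were chosen after their values were seen. Some genes that the rule names are not reported here.

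Pericyte nuclei had 4 or more UMIs over Rgs5, Kcnj8, Abcc9, Vtn and Higd1b, and fibroblast nuclei 4 or more of Pdgfra and Abca8a. Endothelial nuclei had 2 or more of Cdh5, macrophage nuclei 3 or more of Mrc1, and cardiomyocyte nuclei at least 3% of UMIs from Ttn, Ryr2 and Myh6. All types but the last had 1 or fewer Myh11 UMIs. They also had 1 or fewer UMIs summed over those of Pdgfra, Abca8a, Cdh5 and Mrc1 that did not choose them. The pericyte genes were not limited in fibroblast, endothelial or macrophage nuclei. Ratios had 20 CPM added. Counts were summed per library (1 heart, n = 2 per group) and compared with edgeR 4.0.16 in R 4.3.3 (TMM, filterByExpr at 10 UMIs, quasi-likelihood, Benjamini-Hochberg), tested on simulated data. Their spread between libraries was set beforehand and not taken from these hearts. The changed genes were drawn only from genes with more UMIs than the filter asks for, so genes near the filter were not covered. In these data the father contrast recovered 35.5% of 2-fold and 99.5% of 4-fold changes, with 1 and 9 false calls. The difference from pericyte nuclei recovered 19% and 90.5%, with 3 and 11 false calls. The absence of calls therefore says little about 2-fold changes, or about larger changes in genes with few UMIs. Alternatives were DESeq2 1.42.0, limma 3.58.1, RLE scaling, no filter, doublets removed (Scrublet in scanpy 1.11.5), a stricter rule, 1000 UMIs per nucleus, a replicate block and each library left out.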

Additional observations from a re-analysis of the deposited data

How the results depend on the processing

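In the father contrast, 0 genes were called with TMM or RLE scaling, limma-voom, doublets removed, the stricter rule, 1000 UMIs per nucleus and the replicate block. DESeq2 called 1 and edgeR with no filter on low counts 4, among them Eln, Opcml and Camk1d. Leaving out 1 library gave 0 to 6 calls, with 6 without injured-father library 2, 5 without uninjured-father library 1 and 1 without uninjured-father library 2; a lone library is then assumed to vary like the others. The difference from pericyte nuclei gave 2 calls with no filter, 2 with the stricter rule, and 0 to 16 with 1 library left out; the 16 came without injured-father library 1. Replicate numbers are shared between groups only as numbers: deviations of same-numbered libraries correlated at 0.116 over 3861 genes. The replicate block, run for the father contrast only, gave 0 calls with 135 genes at an unadjusted p under 0.05 (edgeR).

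The lower share of smooth muscle nuclei kept its direction in every setting run, with log2 ratios of -1.04 to -0.37 without 1 library, and per pericyte nucleus -0.58 to -0.34. The log2 fold change of Gphn ran from -0.051 to 0.36 with 1 library left out, changing sign without uninjured-father library 2 (-0.051) and without injured-father library 1 (-0.0091), and the cause was not tested. The median of immediate early genes, 3 tested, ran from -0.23 without injured-father library 2 to 1.24 with doublets removed. Depth limits these results: the smallest library summed to 144490 UMIs from 58 nuclei.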

Other observations

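Without injured-father library 1, injured-father library 2, which had 3 Eln-rich nuclei, stood alone for its group in the difference from pericyte nuclei. That difference was then 2.18 for Opcml and -1.34 for Slit3 on the log2 scale. With injured-father library 2 left out in its place, the difference was 1.37 for Opcml and -1.05 for Slit3. Opcml stood at 0.0125 and 0.269 UMIs per 1000 in Eln-rich and Eln-free nuclei, lower in Eln-rich nuclei in all 4 libraries, and Slit3 at 1.62 and 1.01, higher in 3 of 4.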
